A study of Mus musculus with 4 samples.

Results

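The transcripts described here are the 9 genes Il4i1, Ido1, Kmo, Kynu, Ahr, Ahrr, Arnt, Tiparp and Cyp1b1, out of 23284 gene symbols measured in each library. They were chosen by their place in tryptophan catabolism and the aryl hydrocarbon receptor pathway, with their values under galectin-1 and vehicle already known. Their differences between those groups are therefore a description, with no weight as evidence, and each adjusted p printed for one of the 9 only says where the gene stood in a fit of all genes. RNA was sequenced from macrophages grown out of the bone marrow of wild-type mice, a primary cell model of tissue macrophages. Every culture was first exposed to lipopolysaccharide (LPS), a bacterial cell wall component, at 1 µg/ml for 1 h. The vehicle group then received phosphate-buffered saline (PBS) and the other group recombinant mouse galectin-1, a lectin that binds galactose-containing glycans, for 24 h, with 2 libraries in each. The sources used here do not give the galectin-1 dose or the age of the mice, and no culture without LPS was analysed here.

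Il4i1 encodes a secreted oxidase of aromatic amino acids that turns tryptophan into indole-3-pyruvate, a source of ligands of the aryl hydrocarbon receptor. Ido1 encodes the dioxygenase that opens the indole ring of tryptophan on the way to kynurenine, another ligand of the receptor, while Kmo and Kynu encode the hydroxylase and the hydrolase that carry kynurenine further towards NAD. Ahr encodes the receptor itself, which on binding a ligand moves to the nucleus, pairs with the product of Arnt and binds xenobiotic response elements, whose core letters are GCGTG. Ahrr, Tiparp and Cyp1b1 are known target genes: Ahrr encodes a repressor that competes for Arnt, Tiparp an ADP-ribosyltransferase that restrains the receptor, and Cyp1b1 a cytochrome P450 monooxygenase. In macrophages and dendritic cells both branches of tryptophan breakdown are known for restraining T cells.

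The promoters of the 3 receptor targets are shown because each holds GCGTG, the letters the receptor is known to read. That of Il4i1, which had the log2 fold change farthest from 0 among the 5 tested members, is shown beside them and holds none. Each run is the 250 bases before the RefSeq start site, 5′ to 3′ on the gene's strand, in GRCm38.p6. They lie at chr7:44836038-44836287 (plus strand) for Il4i1, chr3:65528197-65528446 (plus) for Tiparp, chr13:74292332-74292581 (minus) for Ahrr and chr17:79715062-79715311 (minus) for Cyp1b1. Capitals mark AGGAAGT, the core bound by the macrophage factor PU.1, in Il4i1, and GCGTG in the others, on either strand.
Il4i1: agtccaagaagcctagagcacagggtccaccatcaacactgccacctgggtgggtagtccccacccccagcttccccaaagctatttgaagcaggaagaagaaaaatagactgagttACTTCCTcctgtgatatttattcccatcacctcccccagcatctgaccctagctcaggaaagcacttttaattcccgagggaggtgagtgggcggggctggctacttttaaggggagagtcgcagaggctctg
Tiparp: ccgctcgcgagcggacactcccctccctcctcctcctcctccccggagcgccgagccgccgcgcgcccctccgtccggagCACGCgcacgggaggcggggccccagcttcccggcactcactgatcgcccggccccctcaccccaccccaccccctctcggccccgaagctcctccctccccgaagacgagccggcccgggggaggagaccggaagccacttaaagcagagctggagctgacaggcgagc
Ahrr: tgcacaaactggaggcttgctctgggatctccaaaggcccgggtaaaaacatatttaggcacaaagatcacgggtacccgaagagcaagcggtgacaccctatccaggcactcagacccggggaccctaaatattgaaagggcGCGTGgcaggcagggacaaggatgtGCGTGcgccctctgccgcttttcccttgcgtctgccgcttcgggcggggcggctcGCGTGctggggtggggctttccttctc
Cyp1b1: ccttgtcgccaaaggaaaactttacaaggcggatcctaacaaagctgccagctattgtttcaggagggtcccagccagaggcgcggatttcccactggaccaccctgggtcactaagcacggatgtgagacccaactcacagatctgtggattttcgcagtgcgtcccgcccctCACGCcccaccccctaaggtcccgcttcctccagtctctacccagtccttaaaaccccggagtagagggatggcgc
A promoter entry was found for 6 of the 9 genes. GCGTG stood in 4 of these 6, namely Ahrr with 3 matches and Arnt, Tiparp and Cyp1b1 with 1 each, against 28.2% of the 32851 promoter windows of this length in the table. The longer form TNGCGTG, which contains GCGTG, stood once in Ahrr, at base -29 from the start site, and in 4.10% of all windows. Il4i1 had no GCGTG in this window and 1 match to AGGAAGT, at -133, as did Kmo at -102, against 7.69% of all windows. The letters of NF-kB sites, of gamma-activated sequences and of interferon-stimulated response elements were also searched and stood in 0 of the 6, against 0.356%, 7.02% and 2.98% of all windows. Both strands were searched, and a match or its absence describes only these letters in this window.

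The 9 transcripts spanned a wide range of levels, in FPKM, fragments scaled to transcript length and library size, a unit that allows levels of different genes to be compared. With vehicle the order of the means was Tiparp (125.6 FPKM), Arnt (13.2), Il4i1 (12.4), Kmo (4.55), Ahr (2.17), Cyp1b1 (0.651), Kynu (0.305), Ido1 (0.245) and Ahrr (0.187). Libraries of neighbouring genes did not overlap down to Kynu, whereas Kynu, Ido1 and Ahrr could not be ordered beyond their spread. Arnt and Il4i1 were close, with a lowest Arnt value of 12.9 FPKM and a highest Il4i1 value of 12.8 FPKM. Their order rests on the spread between libraries, which does not cover how reads from overlapping genes were assigned. With galectin-1 the first 7 places were the same, and Ahrr (0.169 FPKM) stood above Ido1 (0.0565). Tiparp was thus the highest of the 9 in each library, while the other receptor targets, Ahrr and Cyp1b1, stayed under 1 FPKM in each.

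**Figure D1:**
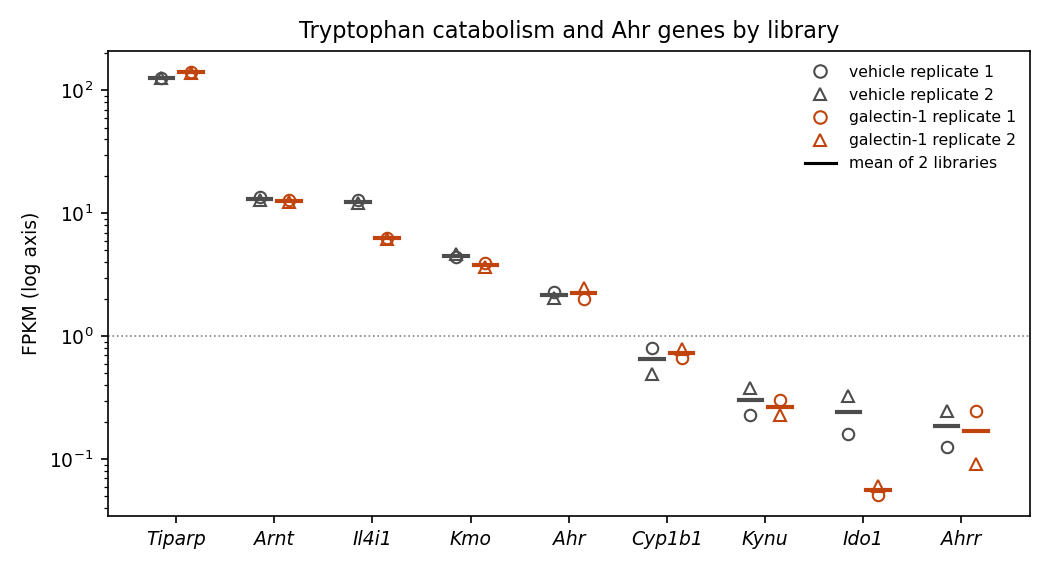
FPKM of each of the 9 genes in the 4 libraries on a log axis, with circles for replicate 1, triangles for replicate 2 and bars for the means of the vehicle and galectin-1 groups; the dotted line is the expression minimum of 1 FPKM. The Il4i1 points with galectin-1, 6.36 and 6.20, lie below both vehicle points, while those of Ahr interleave.

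Il4i1 had 12.8 and 12.1 FPKM in vehicle replicates 1 and 2 and 6.36 and 6.20 FPKM in galectin-1 replicates 1 and 2. Both galectin-1 libraries lay far below both vehicle libraries, and the replicates of a group were close to each other. The means were 12.4 ± 0.529 and 6.28 ± 0.119 FPKM (SD, n = 2 per group), so that the level with galectin-1 was 50.5% of that with vehicle. On the log2(FPKM + 1) scale, which understates changes of low genes, Il4i1 fell by 0.88 with a standard error of 0.06 and a 95% interval from -1.04 to -0.73 (limma, adjusted p = 0.0128 over 9380 tested genes). In these bulk samples fewer cells of a kind and less RNA per cell cannot be told apart. Among the tested genes 22 had a lower log2 fold change, and 3 of these were called; of the 916 genes between 10 and 15 FPKM with vehicle, 2 did.

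The call of Il4i1 rested on all 4 libraries and on the fit. Its adjusted p was 0.0856 without vehicle replicate 1, 0.0695 without vehicle replicate 2, 0.0696 without galectin-1 replicate 1 and 0.0966 without galectin-1 replicate 2, 0.0796 in limma without a variance trend and 0.123 with no expression filter. The log2 fold change stayed between -0.97 and -0.84 over all 13 alternatives, and 7 of them kept the adjusted p below the threshold of 0.05.

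Il4i1 spans chr7:44836288-44840809 in RefSeq (GRCm38.p6) and overlaps other genes in the annotation. In GENCODE M21, on the same assembly, Il4i1 starts further upstream, at base 44816387, so the promoter window printed is that of the RefSeq start. There Il4i1 and Nup62, a nuclear pore gene, overlap on the plus strand, and Tbc1d17, which encodes a Rab GTPase-activating protein, overlaps Il4i1 on the minus strand. The libraries were made with a stranded kit, per the labels, but the sources used here do not say whether strand was used or how shared stretches were assigned. Nup62 had 21.0 and 22.0 FPKM with vehicle and 22.5 and 24.1 with galectin-1. Tbc1d17 had 5.86 and 5.52 FPKM with vehicle and 5.81 and 5.44 with galectin-1. Atf5, a transcription factor gene on the minus strand, overlaps Il4i1 at the GENCODE starts of both. Its values were 16.6 and 14.3 FPKM with vehicle and 16.5 and 18.0 with galectin-1. In Tbc1d17 and Atf5 the groups overlapped, and in Nup62 both galectin-1 libraries were higher. RefSeq also lists Il4i1b over Il4i1, which was not among the gene symbols measured.

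Markers of macrophages and of other cells that such a culture could hold were set beside Il4i1. All 12 listed dendritic cell markers were in the files and 4 were tested. Fscn1, which encodes fascin, an actin bundler known from mature dendritic cells, decreased from 11.5 to 8.01 FPKM (log2 fold change -0.47, limma adjusted p = 0.0425). The other 3 did not pass, with values of -0.41 for Cacnb3, -0.27 for Ccl22 and -0.12 for Ccr7. Of the 112 genes called in this fit, 3 stayed called with no expression filter and 2 in limma without the variance trend. The summed level of the 12 markers was 25.1 and 25.4 FPKM with vehicle and 18.6 and 19.9 with galectin-1, most of it from Fscn1 and Ccl22. The means of 6 of the 12 were lower with galectin-1 and those of 6 were higher, the latter all among the untested markers. Of these 6, Zbtb46, a transcription factor of classical dendritic cells, had 0.249 and 0.0822 FPKM with vehicle and 0.296 and 0.320 with galectin-1. The lineage markers Flt3 and Clec9a lay between 0 and 0.128 FPKM in every library, none of the 12 was at 0 in all 4, and the 8 untested markers did not exceed 0.543 FPKM. The part of such cells in the decrease of Il4i1 was not tested. The 10 macrophage markers summed to 9414 and 9409 FPKM with vehicle and 10212 and 10195 with galectin-1. Most of this came from Lyz2 (mean 5701 FPKM with vehicle). The means of 8 of the 10 were higher with galectin-1, and those of 2, Mertk and Cd163, were lower. Csf1r had 367 and 363 FPKM with vehicle and 406 and 406 with galectin-1. Mertk had 19.8 and 18.3 FPKM with vehicle and 17.0 and 16.7 with galectin-1. The 10 fibroblast markers summed to 18.1 and 18.5 FPKM with vehicle and 23.3 and 23.2 with galectin-1, and the neutrophil, B cell and mast cell lists to at most 3.60 FPKM in a library. The 7 T and NK cell markers found summed to 24.2 to 25.2 FPKM, most of it from Lck (mean 20.8 FPKM with vehicle), with Cd3e at 0 in all libraries.

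**Figure D2:**
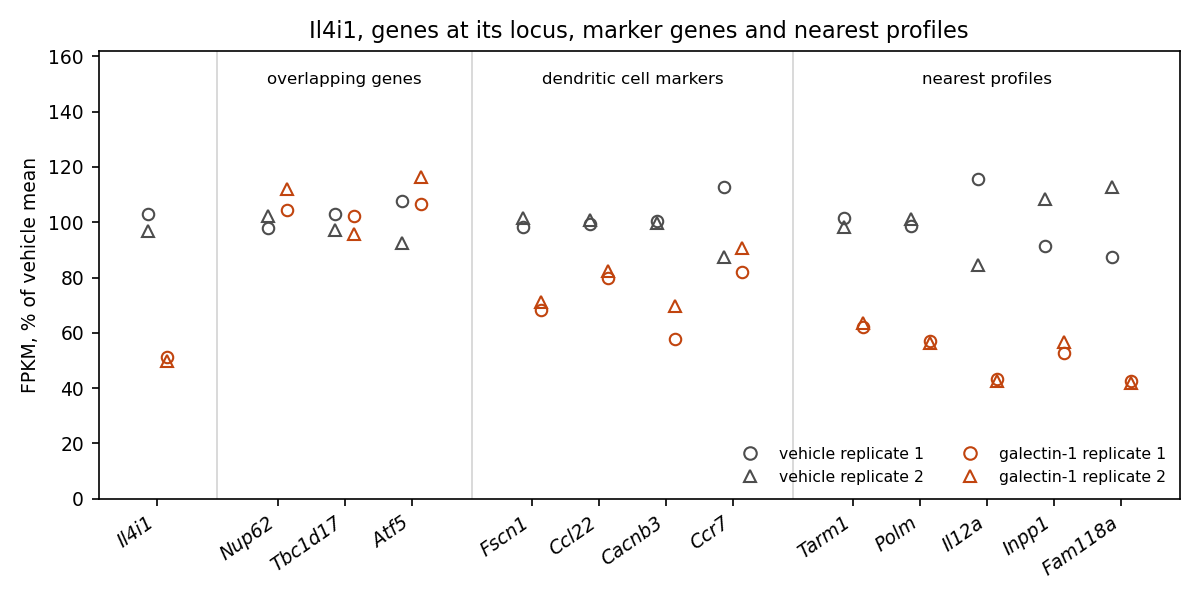
FPKM as a percentage of the gene's vehicle mean in each library, for Il4i1, 3 genes that overlap it (Nup62, Tbc1d17 and Atf5), the 4 tested dendritic cell markers and the 5 genes with the nearest profiles; circles are replicate 1 and triangles replicate 2. Il4i1 with galectin-1 sits near 50.5%, the points of Tbc1d17 and Atf5 interleave, and those of Fscn1 are lower with galectin-1.

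The 5 genes whose centred log2 profile over the 4 libraries lay nearest to that of Il4i1, by Euclidean distance in log2 units, were Tarm1 (0.240), Polm (0.265), Il12a (0.273), Inpp1 (0.284) and Fam118a (0.287). Tarm1, an activating receptor of myeloid cells, fell from 38.6 to 24.3 FPKM. Polm, a DNA polymerase of end joining, fell from 4.42 to 2.50 FPKM, and Inpp1, an inositol phosphatase, from 6.02 to 3.29 FPKM (limma adjusted p from 0.0116 to 0.0446). The vehicle and galectin-1 means of Il12a, a subunit of interleukin 12, were 1.81 and 0.781 FPKM (limma adjusted p = 0.0741), and those of Fam118a 2.11 and 0.889 FPKM (adjusted p = 0.0589). Over 4 libraries in 2 groups this measure mainly compares the size of the group difference. The 5 genes were picked by it from these same libraries, so their adjusted p-values carry no weight as evidence.

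Of the 9 genes, 5 passed the expression minimum, a mean of at least 1 FPKM, and 1 of these, Il4i1, was called lower, where 1.19% of all tested genes were called in either direction and 0.586% were called lower. No member was called higher. The galectin-1 and vehicle libraries did not overlap for 4 of the 5 (Il4i1, Kmo, Arnt and Tiparp), and this was so for 55.4% of all tested genes. Since the members were chosen with these values known, nothing is read from these shares.

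In the kynurenine branch Kmo (chr1:175632193-175660853) was the best-expressed member. It had 4.39 and 4.70 FPKM with vehicle and 3.96 and 3.67 with galectin-1. Both galectin-1 libraries were below both vehicle libraries, by less than the difference seen for Il4i1. The difference on the log2 scale, -0.20 with standard error 0.08, missed the threshold (limma, adjusted p = 0.208). Kynu (chr2:43555258-43683048) had 0.228 and 0.382 FPKM with vehicle and 0.304 and 0.229 with galectin-1, and the groups overlapped. Ido1 (chr8:24584133-24596952) had 0.160 and 0.330 FPKM with vehicle and 0.0518 and 0.0612 with galectin-1, without overlap, at a level under the minimum for a test.

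The low values could be resolved further. After scaling by the relative depth of the libraries, which was 0.969 for vehicle replicate 2, 1.03 for galectin-1 replicate 1 and 0.872 for galectin-1 replicate 2 against vehicle replicate 1, the values of 6 members were whole multiples of a common step to within 0.0005%. A step is 1 fragment, or a fixed number of fragments, and the intervals given here take it as 1 fragment and cover counting error only. For Ido1 the multiples were 3 and 6 with vehicle and 1 and 1 with galectin-1, a depth-adjusted ratio of galectin-1 to vehicle of 0.230 with an exact 95% interval from 0.0242 to 1.11. Ido1 was therefore near the detection limit in all 4 libraries, and a difference between the groups was not detectable at this depth. Kynu had multiples of 8 and 13 with vehicle and 11 and 7 with galectin-1 (ratio 0.888, interval 0.446 to 1.75). For Kmo they were 140 and 145 against 130 and 102, a ratio of 0.843 with an interval from 0.706 to 1.01.

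The receptor's own message did not separate the groups. Ahr (chr12:35497979-35534989) had 2.30 and 2.05 FPKM with vehicle and 2.01 and 2.46 with galectin-1, with the lowest and the highest value both under galectin-1. The log2 fold change was 0.03 with a 95% interval from -0.25 to 0.30 (limma, adjusted p = 0.916), and its sign turned without vehicle replicate 2 (-0.031) or galectin-1 replicate 2 (-0.076). In steps Ahr had 169 and 146 with vehicle and 152 and 158 with galectin-1, a ratio of 1.02 with an interval from 0.868 to 1.20. Arnt (chr3:95434367-95497240), the partner subunit, had 13.5 and 12.9 FPKM with vehicle and 12.9 and 12.4 with galectin-1. Its groups were set apart by a narrow margin, and the log2 fold change was -0.06 with an interval from -0.20 to 0.08 (limma, adjusted p = 0.552).

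Among the target genes Tiparp had 125.2 and 126.0 FPKM with vehicle and 141.7 and 139.9 with galectin-1. Both galectin-1 libraries were above both vehicle libraries, and the replicates lay close together. The means were 125.6 ± 0.627 and 140.8 ± 1.26 FPKM (SD, n = 2 per group). On the log2 scale this is 0.16, standard error 0.03 (limma, adjusted p = 0.0663), short of the threshold. The limma adjusted p was 0.0410 without entries of small RNAs and stayed above the threshold in every other fit of all libraries. It was 0.0536 with a filter of 5 FPKM, 0.0804 with quantile normalization, 0.144 with no filter and 0.179 without the trend. Tiparp lies at chr3:65528447-65555518, where 4931440P22Rik, which overlaps it, had a mean of 2.10 FPKM.

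The repressor and the monooxygenase were low, and their groups overlapped. Ahrr (chr13:74211118-74292331) had 0.127 and 0.246 FPKM with vehicle and 0.247 and 0.0911 with galectin-1, so the libraries of a group differed more than the groups. In steps these were 8 and 15 against 16 and 5, a ratio of 0.945 with an interval from 0.498 to 1.79. Cyp1b1 (chr17:79706940-79715061) had 0.804 and 0.498 FPKM with vehicle and 0.667 and 0.788 with galectin-1. Its mean was 112% of vehicle, beside 90.6% for Ahrr. In steps Cyp1b1 had 55 and 33 against 47 and 47, a ratio of 1.11 with an interval from 0.818 to 1.50. Their promoters hold GCGTG, as that of Tiparp printed with them does. With 2 libraries per group at this depth no difference between the groups was detectable for either.

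**Figure D3:**
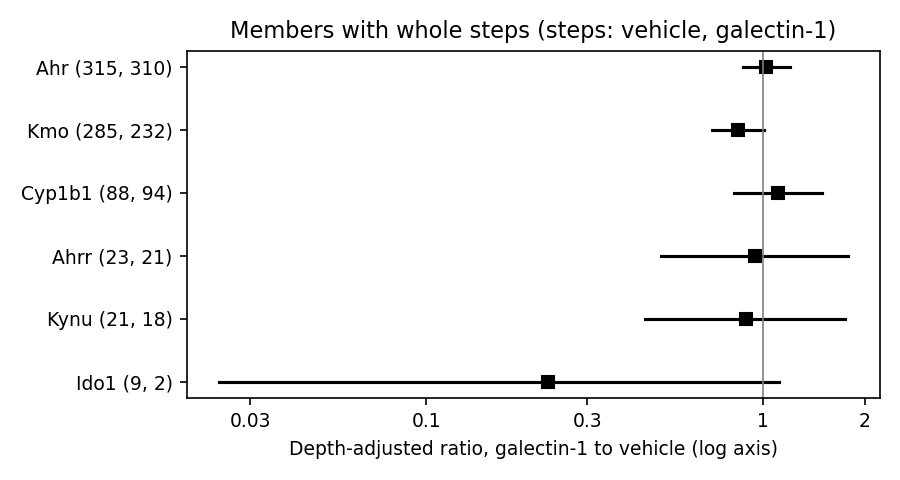
Depth-adjusted ratio of galectin-1 to vehicle on a log axis for the 6 genes whose values are whole steps, with exact 95% counting intervals and, in brackets, the summed steps of the vehicle and galectin-1 libraries. All 6 intervals include 1, and that of Ido1, from 9 and 2 steps, is the widest.

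The other genes of the pathway were read from 9 lists of 86 symbols, 84 of which were in the files and 47 of which were tested. Of these 47, 1 was called higher, 0 were called lower and 46 did not pass, where 1.19% of all tested genes were called in either direction. An unadjusted limma p under 0.05 was held by 17 of the 47, beside 2172 of 9380 over all tested genes. The median log2 fold change was 0.03, beside 0.00 over all tested genes. Of 10 other kynurenine pathway enzymes 2 were tested and neither passed. Kyat3, a kynurenine aminotransferase, had means of 0.931 and 1.28 FPKM in the vehicle and galectin-1 groups (log2 fold change 0.24, limma adjusted p = 0.236). Got2, a mitochondrial aminotransferase, had 25.6 and 26.2 FPKM (0.03, adjusted p = 0.860). Ido2, the paralogue of Ido1, was between 0.697 and 0.973 FPKM, above Ido1 in each library. Aadat, an aminotransferase, and Qprt, which leads quinolinate into NAD synthesis, were listed at 0 in all libraries.

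Of 6 tested NAD synthesis genes 0 were called higher and 0 lower, beside 1.19% of all tested genes called in either direction. Nampt, the rate-limiting enzyme of the nicotinamide salvage route, had means of 161 and 178 FPKM (log2 fold change 0.14, limma adjusted p = 0.0848). Nmnat1, the nuclear enzyme that forms NAD from the mononucleotide, had 5.13 and 3.70 FPKM (-0.38, adjusted p = 0.0929). Naprt, which uses nicotinic acid, had 1.43 and 0.979 FPKM (-0.30, adjusted p = 0.205). In the serotonin and methylation branch 1 of 8 genes, the amine oxidase gene Maoa, was tested and did not pass (2.77 and 2.72 FPKM, adjusted p = 0.923). Both tryptophan hydroxylases, Tph1 and Tph2, were listed at 0.

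Of 9 tested genes of tryptophan uptake, charging and sensing 0 were called higher and 0 lower, beside 1.19% of all tested genes called in either direction. Slc3a2, the heavy chain of large neutral amino acid transporters, had means of 145 and 165 FPKM (log2 fold change 0.19, limma adjusted p = 0.0562). Slc16a10, an aromatic amino acid transporter, had 15.8 and 19.3 FPKM (0.27, adjusted p = 0.0614). Wars, the tryptophanyl-tRNA synthetase, had 55.9 and 50.8 FPKM (-0.13, adjusted p = 0.126). Slc7a5, the light chain that carries tryptophan, had 4.29 and 3.71 FPKM (-0.17, adjusted p = 0.291). The 3 tested genes of phenylalanine and tyrosine breakdown, whose substrates the Il4i1 enzyme also oxidises, did not pass. Among them the cytokine gene Mif, whose product is also a phenylpyruvate tautomerase, had 250.2 and 269 FPKM (0.10, adjusted p = 0.161), Ddt, its paralogue, 23.0 and 22.2 FPKM (adjusted p = 0.753) and Gstz1, an isomerase of tyrosine breakdown, 2.94 and 2.76 FPKM (adjusted p = 0.830).

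Of 11 tested chaperones, partners and coactivators of the receptor 1 was called higher, 0 were called lower and 10 did not pass, beside 1.19% of all tested genes called in either direction. Hsp90aa1, the inducible form of the chaperone that holds the receptor in the cytosol, rose from 97.5 ± 1.55 to 115 ± 1.45 FPKM (SD, n = 2 per group; log2 fold change 0.24, limma adjusted p = 0.0446). That call was lost without any one library (adjusted p from 0.176 to 0.221), with quantile normalization (0.0617), with no filter (0.130) and in limma without the trend (0.140). Its constitutive relative Hsp90ab1 had 211 and 231 FPKM (0.13, adjusted p = 0.0831), and the acetyltransferase coactivator Ep300 28.4 and 32.4 FPKM (0.18, adjusted p = 0.0877). Of the 11 log2 fold changes 9 were positive, with a median of 0.13, beside 4754 of 9380 and a median of 0.00 over all tested genes.

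Of 12 other receptor target genes 4 were tested and 0 passed. Nfe2l2, the regulator of antioxidant genes, had means of 45.4 and 50.6 FPKM (log2 fold change 0.15, limma adjusted p = 0.113). Xdh, xanthine dehydrogenase, had 85.6 and 77.2 FPKM (-0.15, adjusted p = 0.126), and Nqo1, a quinone reductase, 1.14 and 1.27 FPKM (0.09, adjusted p = 0.690). Cyp1a1, the classical target of the receptor, was listed at 0.0307 FPKM in vehicle replicate 2 and at 0 in the other libraries. Cyp1a2, Aldh3a1 and Gsta1, also enzymes of xenobiotic metabolism, were listed at 0 in all. Of 4 other receptors of tryptophan metabolites none reached the minimum, and Gpr35, which senses kynurenic acid, had at most 0.283 FPKM.

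Of 11 tested genes known to induce Ido1 or Il4i1 0 were called higher and 0 lower, beside 1.19% of all tested genes called in either direction. Nfkb1, a subunit of NF-kB, had means of 175 and 198 FPKM (log2 fold change 0.18, limma adjusted p = 0.0555). Ifngr1, a chain of the interferon gamma receptor, had 48.1 and 53.1 FPKM (0.14, adjusted p = 0.132), and Ifnb1, encoding interferon beta, 13.7 and 16.0 FPKM (0.21, adjusted p = 0.201). Irf1, a transcription factor of the interferon response, had 673 and 663 FPKM (-0.02, adjusted p = 0.704). Ifng, encoding interferon gamma, a well known inducer of Ido1, did not exceed 0.210 FPKM. The 11 log2 fold changes, 7 of them positive, had a median of 0.04, beside 4754 positive of 9380 and a median of 0.00 over all tested genes.

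**Figure D4:**
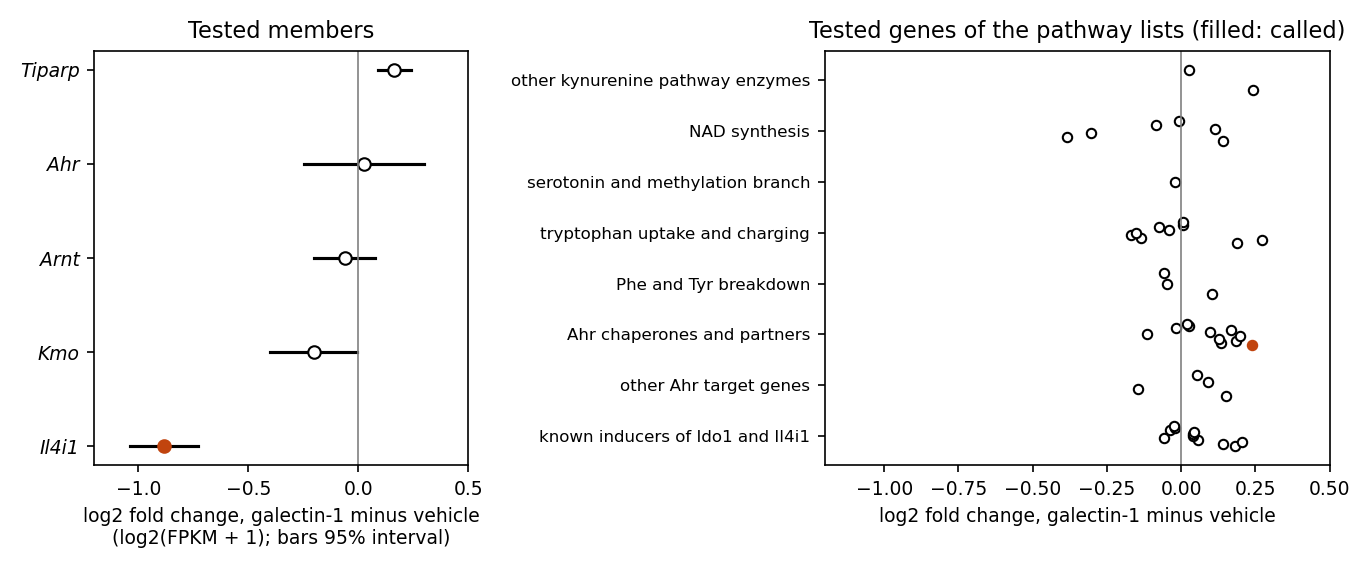
Left, log2 fold change of log2(FPKM + 1), galectin-1 minus vehicle, of the 5 tested members with 95% intervals; right, the 47 tested genes of the pathway lists, 1 point each, with filled points for adjusted p under 0.05. Il4i1, at -0.88, lies outside the range of the list genes, from -0.38 to 0.27, among which Hsp90aa1 is filled.

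Of the series as a whole, library totals ranged from 541138 to 557661 FPKM and 13636 to 13785 symbols were above 0. In limma 57 genes were higher and 55 lower, with a median absolute log2 fold change of 0.37. The labels do not say whether replicates came from separate cultures or mice. The p-values therefore reflect the spread between these 4 samples alone, which may be technical. Exact permutation of 2 against 2 libraries gives no 2-sided p under 0.333 and was left out.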

How the data were processed

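Each library's file, as deposited by the authors, gives 1 FPKM value per gene symbol. Per the submitters' processing notes, Cufflinks 2.2.1, TopHat2 2.0.13, Bowtie2 2.2.3 and SAMtools 0.1.19 were used with build mm10, in no stated role. The sources used here do not give the annotation or any scaling between libraries. Groups and replicate numbers came from the sample titles. Genes averaging 1 FPKM or more over the libraries entered limma 3.58.1 (R 4.3.3) as log2(FPKM + 1). The fit used empirical Bayes with a variance trend, 2-sided tests and Benjamini-Hochberg adjustment over all 9380 genes. It had 2 residual and 3.89 prior degrees of freedom. It was also run on simulated data with independent normal noise, which does not show how it behaves on the spread of these libraries.

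Relative depth is the most frequent ratio among 1366 genes below 0.3 FPKM in every library; 250, 227 and 231 of them shared it. Whole steps were the smallest multiples, up to 400, within 0.0005%, and were found for 74.0% of these genes (up to 60). With 1 step per fragment, 158 such genes with 1 GENCODE M21 transcript gave vehicle replicate 1 a median of 12785000 fragments (quartiles 11760000 and 13192000). Intervals for step ratios are exact (Clopper-Pearson, SciPy 1.17.1). Promoters and places are from RefSeq, GRCm38.p6, the assembly of mm10.

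The members and lists were chosen with earlier results of these data known. Named genes were all members, list genes past the threshold or up to 3 of smallest p per list, and the 5 nearest profiles; other genes named (Slc7a5, Hsp90ab1, Ep300, Ido2, Irf1, those at or near 0, marker genes and overlapping genes) were chosen after their values were seen. Of 146 list symbols 142 were found, 5 under a synonym. Alternatives were other pseudocounts, filters and scalings, a fit without the trend, without small RNA entries, with a replicate block, and without each library.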

Additional observations from a re-analysis of the deposited data

How the results depend on the processing

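Genes called higher and lower, 57 and 55, depended on the fit: 127 and 99 with a filter of 5 FPKM, 1 and 2 with no filter, 1 and 1 without the trend, 24 and 47 with quantile normalization, 189 and 176 without small RNA entries, and 4 to 9 and 3 to 12 with 1 library left out. The cause was not tested. Quantile normalization made 33.8% of the calls increases in place of 50.9%. The 1 member called lower, Il4i1, became 0 with no filter, without the trend and with any library left out; 1 member, Tiparp, was called higher without small RNA entries. Among list genes the 1 called higher became 4 at 5 FPKM and without small RNA entries (Hsp90aa1, Nfkb1, Slc3a2 and Slc16a10) and 0 with no filter, without the trend, with quantile normalization and with any library left out. The log2 fold change of Ahr ranged from -0.076 to 0.13 with 1 library left out, where the lone library of a group was taken to vary like the other group. Ido1, untested, had a log2 difference of -0.23, or -1.10 and -0.41 at pseudocounts of 0.1 and 0.5. With the replicate number of the titles as a block, 123 genes were higher and 117 lower, and 3 list genes were higher. Il4i1 then had a limma adjusted p of 0.00562. Deviations of same-numbered libraries from their group means had a correlation of 0.0114 over 9380 genes. With 2 libraries per group this cannot tell whether same-numbered libraries shared a mouse, day or culture. No alternative shifted the median of all genes by over 0.1. Differences under about the intervals given were not detectable with 2 libraries per group at this depth. The 4 members under 1 FPKM were not refitted under the scalings.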
